A study of Mus musculus with 6 samples.

Results

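The proteasome subunit transcripts of mouse microglia were compared between amyloid-bearing mice with and without interleukin-3. Members were taken by symbol: genes named Psma, Psmb, Psmc or Psmd with a number, other than Psmb8 and Psmb9, at 1 CPM or more in at least 3 of 6 libraries, CPM being a gene's reads scaled to 1000000 in the library. The deposited table of 20129 genes held 37 such symbols, and 36 of them passed, 16 of the core particle (8 Psma and 8 Psmb) and 20 named for the regulatory particle (6 Psmc and 14 Psmd). Just inside the limit was Psma8, at 2.72 CPM in its lowest library, and just outside was the thymic subunit gene Psmb11, listed at 0 in all libraries but 5xFAD replicate 6 (0.266 CPM). Every member passed the limit in all 6 libraries.

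The libraries came from CD45+ CD11b+ live cells, labelled microglia, sorted from brains of C57BL6/J mice aged 5 months. Each of the 2 groups had 3 libraries, and each library pooled cells of 4 mice, 2 male and 2 female. The control group was 5xFAD (replicates 4, 5 and 6), a line that carries mutant human amyloid precursor protein and presenilin transgenes under the neuronal Thy1 promoter. The other group, Il3-/-5xFAD (replicates 1, 2 and 3), carried the same transgenes and had Il3 deleted. Both groups thus bore amyloid transgenes, and no library came from mice without them.

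The proteasome is the cell's main machine for breaking down proteins marked with ubiquitin. Its core particle is a barrel of stacked rings. The outer alpha rings gate the entrance and the inner beta rings hold the proteolytic sites. The regulatory particle caps the barrel: its ATPases unfold the substrate and thread it inwards, and its lid and receptors bind ubiquitin chains and cut them off. In cells that see interferon, including activated microglia, the catalytic beta subunits are exchanged for immunoproteasome forms that favour peptides for MHC class I. Genes of the complex are known to be held at matched levels by the transcription factor NRF1, encoded by Nfe2l1, when proteasome activity runs short.

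Libraries held 27970850 to 37605490 reads, so 1 read was worth 0.0266 to 0.0358 CPM. The targeted gene Il3 was at 1.93, 2.08 and 0.771 CPM in 5xFAD replicates 4, 5 and 6 and was listed at 0 in the 3 Il3-/-5xFAD libraries. All 8 microglial markers were present, with a summed level of 35036 to 36493 CPM in 5xFAD and 34474 to 38512 CPM in Il3-/-5xFAD. The gate does not remove other myeloid cells. The sum over each other marker list looked at was lower in Il3-/-5xFAD, without overlap. The 10 neutrophil markers summed to 1167 to 3097 CPM against 204 to 786 CPM, with no overlap for any of the 10. The 8 monocyte markers summed to 179.7 to 287.7 CPM against 81.0 to 171.7 CPM, and 5 of them had no overlap. The 9 lymphocyte markers summed to 88.5 to 141.0 CPM against 47.4 to 59.2 CPM, and 6 of them had no overlap. Markers of neurons, astrocytes, oligodendrocytes and choroid plexus were summed as 1 list, in which Ttr and Enpp2 were highest. These 12 summed to 294.6 to 634.2 CPM against 126.6 to 196.8 CPM, and 5 of them had no overlap. Some single markers were not lower on average, such as Cd79b (14.5 and 15.7 CPM) and Rbfox3 (0.415 and 1.10 CPM). No marker was at 0 in every library. Their part in the results on the proteasome was not tested. In such bulk samples, fewer cells of a type and less RNA per cell cannot be told apart.

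Promoters of 2 core and 2 regulatory particle members are shown as examples of the motifs searched, whose shares in the core and the regulatory particle were not tested against each other. Promoters of 29 members (12 core and 17 regulatory particle) were found by symbol in RefSeq's table for GRCm38.p6, a later build than that of the files, and the 250 bases before each start site were searched on both strands for 4 motifs. Psma7 and Psmb6 encode the alpha-ring and beta-ring subunits with the most negative difference of their rings. Psmd2 encodes the large scaffold of the base and Psmd4 its ubiquitin receptor. Sequences run 5′ to 3′ on the gene's strand, and capitals mark the CCAAT box (CCAAT), the core of the antioxidant response element to which NRF1 binds (TGACNNNGC), and a core bound by ETS factors (CCGGAAG), each on either strand. Positions are chr2:180042465-180042714 (minus strand), chr11:70525107-70525356 (plus strand), chr16:20651402-20651651 (plus strand) and chr3:95042615-95042864 (minus strand).
Psma7: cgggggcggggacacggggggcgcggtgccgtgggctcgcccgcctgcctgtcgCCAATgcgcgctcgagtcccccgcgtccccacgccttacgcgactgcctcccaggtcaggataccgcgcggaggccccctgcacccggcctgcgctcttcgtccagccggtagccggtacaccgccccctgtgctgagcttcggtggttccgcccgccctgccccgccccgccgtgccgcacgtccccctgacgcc
Psmb6: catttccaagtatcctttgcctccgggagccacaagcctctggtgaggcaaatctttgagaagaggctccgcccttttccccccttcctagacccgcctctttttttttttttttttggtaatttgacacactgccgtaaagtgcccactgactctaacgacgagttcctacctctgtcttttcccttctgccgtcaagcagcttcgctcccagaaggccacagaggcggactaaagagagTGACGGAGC
Psmd2: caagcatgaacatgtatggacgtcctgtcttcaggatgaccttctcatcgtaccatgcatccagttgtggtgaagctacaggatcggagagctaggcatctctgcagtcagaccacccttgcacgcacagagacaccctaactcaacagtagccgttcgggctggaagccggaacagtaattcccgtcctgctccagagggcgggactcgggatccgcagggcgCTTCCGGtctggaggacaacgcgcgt
Psmd4: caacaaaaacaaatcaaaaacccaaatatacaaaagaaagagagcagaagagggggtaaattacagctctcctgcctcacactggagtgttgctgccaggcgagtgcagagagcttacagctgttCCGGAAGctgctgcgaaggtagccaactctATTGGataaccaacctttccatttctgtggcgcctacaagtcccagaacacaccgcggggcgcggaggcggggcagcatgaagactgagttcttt

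The ETS core stood in 9 of the 29 member promoters (31.0%), against 6.91% of all 32851 promoters in the table and 16.2% of the 8470 tested genes with a promoter. It was found in 8 of 17 regulatory particle genes (Psmc1, Psmc2, Psmc6, Psmd2, Psmd4, Psmd6, Psmd11 and Psmd12) and in 1 of 12 core genes (Psma6). In Psmd4 the match lay 125 to 119 bases before the start, and in Psmd2 it lay on the other strand, 26 to 20 bases before it. The antioxidant response core was found in 5 members (Psmb5, Psmb6, Psmc6, Psmd9 and Psmd12; 17.2%), against 14.2% of tested genes and 10.2% of all promoters, and in Psmb6 it ended at the last base before the start. CCAAT occurred in 11 members (37.9%), close to its share in tested genes (40.7%; 33.8% of all promoters), in 6 of 12 core genes and 5 of 17 regulatory particle genes. The core of nuclear respiratory factor 1 sites, GCGCATGC, was in Psma2 and Psmc5 alone (6.90% of members, 5.22% of tested genes, 2.26% of all promoters). No pair of these motifs overlapped in the sequences shown, while in Psma6 and Psmc2 a CCAAT box and an ETS core shared a base. A match is a run of letters, not a bound site.

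Most core and regulatory particle genes had small negative differences that did not pass the test, and the core median was the lower one. With each library corrected for its trend with transcript length, the core median was -0.11 and that of the regulatory particle -0.035. No member passed the test over all genes (limma on log2(CPM + 1), Benjamini-Hochberg adjusted p under 0.05), while 0.882% of the 11900 tested genes did (0.63% lower and 0.252% higher). The lowest adjusted p among members was 0.0773 (limma), for Psma7. Of the 36 members 31 had a negative log2 difference, Il3-/-5xFAD minus 5xFAD, with a median of -0.16, against 50.1% of all tested genes and a median of -0.00059. The median was -0.23 over the 16 core members (15 negative) and -0.085 over the 20 regulatory particle members (16 negative). At an unadjusted p under 0.05 limma gave 9 members, all of them lower (Psma2, Psma4, Psma5, Psma7, Psmb1, Psmb4, Psmb6, Psmb7 and Psmd13). That is 25.0% of members, against 9.83% of tested genes lower and 16.5% in either direction. In 11 members every Il3-/-5xFAD library lay below every 5xFAD library (30.6%, against 11.5% of tested genes), and in none did every one lie above (9.65% of tested genes). These 11 were 8 core members (50% of the core) and 3 regulatory particle members (15%, near the share of tested genes).

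**Figure D1:**
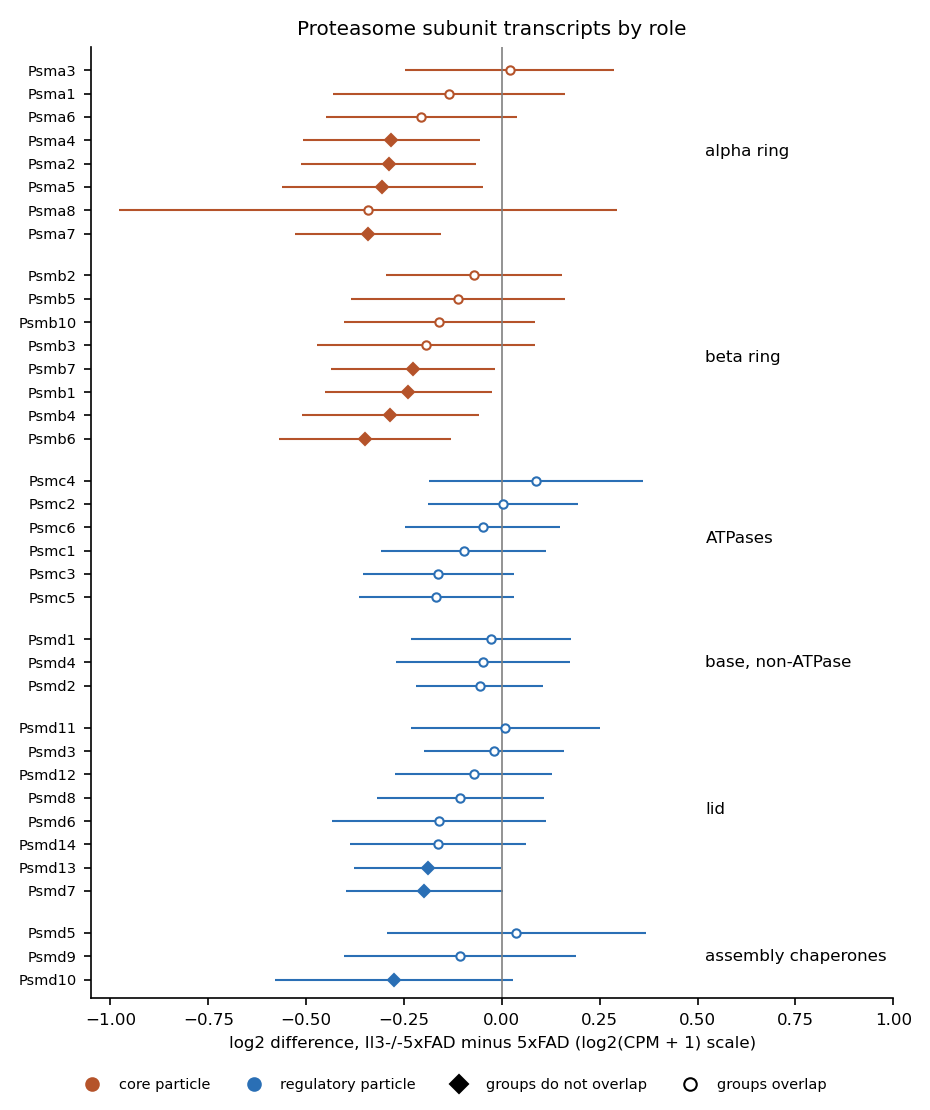
Log2 difference of each of the 36 members (Il3-/-5xFAD minus 5xFAD, on the log2(CPM + 1) scale, x axis), grouped by role. Points are limma estimates from 3 libraries a group, and bars are 95% confidence intervals of single genes. Filled diamonds mark the 11 members whose groups do not overlap, 8 of the core (50%) and 3 of the regulatory particle (15%). Of all tested genes, 11.5% were lower without overlap.

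Among the alpha subunits, Psma7 was at 74.9, 77.2 and 73.2 CPM in 5xFAD replicates 4, 5 and 6 and at 56.7, 58.9 and 61.4 CPM in Il3-/-5xFAD replicates 1, 2 and 3. Its groups were clearly apart, and it differed by -0.34 ± 0.086 (log2, SE; 95% interval -0.53 to -0.16; limma adjusted p = 0.0773). Psma7 encodes alpha4, which can also form core particles with altered rings. Psma5, which encodes alpha5, was at 29.1, 30.0 and 26.3 CPM against 23.1, 23.3 and 22.0 CPM. Its level was lower in every Il3-/-5xFAD library, by -0.31 ± 0.12 (log2, SE; limma adjusted p = 0.216). Psma4, which encodes alpha3, the subunit whose tail forms part of the gate, was at 65.6, 60.5 and 53.5 CPM against 47.7, 52.0 and 47.0 CPM. Psma2 was at 71.6, 79.8 and 79.6 CPM against 61.5, 56.5 and 71.1 CPM. The groups of both genes were apart by a narrow gap, with log2 differences of -0.28 and -0.29. Psma3 showed no such gap: it was at 58.7, 46.9 and 43.0 CPM against 48.4, 47.2 and 54.2 CPM, or 0.020 on the log2 scale (95% interval -0.25 to 0.29). Psma6 was alike in the 3 5xFAD libraries (82.3, 81.7 and 81.1 CPM) and spread in Il3-/-5xFAD (63.1, 65.8 and 85.1 CPM), where replicate 3 was above all controls. Psma1 had a log2 difference of -0.13 with overlapping groups. Summed, the 8 alpha genes were at 450.5 ± 13.8 CPM in the controls and 386.6 ± 35.3 CPM without Il3 (SD, n = 3), and the groups did not overlap.

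Psma8, which encodes a testis form of alpha4, had the lowest level of the members. It was at 2.72, 4.61 and 7.23 CPM in the 5xFAD libraries and 4.16, 2.77 and 3.33 CPM in those of Il3-/-5xFAD. Its values varied more within 5xFAD than between groups, and its interval was wide (log2 difference -0.34, 95% interval -0.98 to 0.29). Per kilobase of transcript it stood at 0.0351 ± 0.0171 of the level of Psma7 in 5xFAD (SD, n = 3), and no stretch of 50 bases in its GENCODE transcripts occurred in those of another gene.

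Of the beta subunits that carry the proteolytic sites, Psmb6, which encodes the caspase-like subunit beta1, was at 78.1, 76.3 and 77.9 CPM in the 5xFAD libraries and 52.7, 64.0 and 66.0 CPM in those of Il3-/-5xFAD. All 3 Il3-/-5xFAD libraries were below the narrow range of the controls, and the log2 difference was -0.35 ± 0.10 (SE; 95% interval -0.57 to -0.13; limma adjusted p = 0.106). Psmb7, which encodes the trypsin-like subunit beta2, was at 76.1, 80.9 and 89.0 CPM against 64.5, 70.1 and 75.0 CPM, and its groups were apart by a gap much smaller than the spread within either (log2 difference -0.23 ± 0.096, SE; limma adjusted p = 0.260). Psmb5, which encodes the chymotrypsin-like subunit beta5, the main target of proteasome inhibitors, was at 36.4, 34.6 and 30.7 CPM against 27.7, 30.9 and 35.6 CPM. Here the groups overlapped, and the interval of the log2 difference ran from -0.38 to 0.16. Of the structural beta subunits, Psmb4 was at 111.3, 106.9 and 119.7 CPM against 79.6, 95.1 and 103.5 CPM, and Psmb1 at 91.8, 92.7 and 92.1 CPM against 70.1, 75.7 and 89.3 CPM. Both had groups that did not overlap, with log2 differences of -0.28 and -0.24. Psmb3 and Psmb2 had overlapping groups and log2 differences of -0.19 and -0.072. The 7 constitutive beta genes summed to 472.7 ± 6.79 CPM in the controls and 401.2 ± 40.2 CPM without Il3 (SD, n = 3), again without overlap.

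Of the immunoproteasome genes, neither Psmb8 nor Psmb10 passed the limma test, and their differences were not tested against each other. Psmb8, which encodes beta5i and was left out of the members by the rule, was at 177.1, 178.8 and 179.5 CPM in the 5xFAD libraries and 125.3, 135.3 and 152.1 CPM in those of Il3-/-5xFAD. Its control values were nearly equal and all 3 other libraries were lower (log2 difference -0.38 ± 0.086, SE; 95% interval -0.57 to -0.19; limma adjusted p = 0.0623). The ratio of Psmb8 to its constitutive counterpart Psmb5, both in CPM per kilobase, was 2.69, 2.86 and 3.23 in 5xFAD and 2.50, 2.42 and 2.36 in Il3-/-5xFAD, lower in each of the latter. Psmb10, the member that encodes beta2i, was at 88.9, 80.2 and 76.6 CPM against 70.8, 64.3 and 85.6 CPM. Its groups overlapped, and so did its ratio to Psmb7 per kilobase (0.891 ± 0.137 and 0.931 ± 0.105, SD, n = 3). Psmb9, which encodes beta1i, was listed at 0 in all libraries but 5xFAD replicate 4, where it had 0.0358 CPM, the worth of 1 read, and is given no comparison. Since annotation and treatment of overlapping or multi-mapping reads are unknown, these zeros do not show that the transcript was absent.

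The ATPases of the regulatory particle showed no common direction. Psmc4 was at 63.8, 59.8 and 63.8 CPM in the 5xFAD libraries and 61.3, 57.8 and 82.8 CPM in those of Il3-/-5xFAD, where replicate 3 alone was high. Its log2 difference, 0.088 ± 0.13 (SE; 95% interval -0.19 to 0.36), was the most positive of all members. Psmc2 was level, at 103.0, 91.1 and 98.6 CPM against 102.6, 90.8 and 100.1 CPM, with a log2 difference of 0.0035 and an interval of -0.19 to 0.19. The most negative was Psmc5 (-0.17 ± 0.091, SE), followed by Psmc3 (-0.16), whose level per kilobase was the highest of the ATPases. Groups overlapped for all 6 ATPase genes, and their median was -0.074.

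In the rest of the base, Psmd2 and Psmd1, which encode the large scaffold subunits, and Psmd4, which encodes the ubiquitin receptor Rpn10, had log2 differences of -0.057, -0.027 and -0.048. Psmd2 had the smallest standard error of all members, at 158.2, 154.5 and 162.4 CPM against 151.0, 148.2 and 157.4 CPM, with an interval of -0.22 to 0.11. Psmd4 was at 80.9, 84.6 and 85.7 CPM against 77.2, 73.0 and 93.9 CPM, where Il3-/-5xFAD held both the lowest and the highest library.

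The lid lay between the core and the ATPases, with a median of -0.13 over 8 genes. Psmd13 was at 63.5, 62.2 and 61.4 CPM in the 5xFAD libraries and 54.5, 53.8 and 55.4 CPM in those of Il3-/-5xFAD, tight within each group and apart between them (log2 difference -0.19 ± 0.086, SE; limma adjusted p = 0.298). Psmd7, which encodes the partner of the deubiquitinase in the lid, was at 68.7, 73.3 and 69.9 CPM against 66.9, 59.7 and 58.0 CPM and was also without overlap (-0.20). Psmd14, which encodes that deubiquitinase, Rpn11, was at 45.1, 42.3 and 49.1 CPM against 39.8, 38.7 and 43.0 CPM, and its groups overlapped slightly (-0.16 ± 0.10, SE). Psmd11, whose product ties lid and base together, was at 58.2, 46.8 and 60.9 CPM against 56.4, 53.1 and 56.4 CPM, a log2 difference of 0.0083 with an interval of -0.23 to 0.25. Psmd8, with the highest level per kilobase in the lid, had a log2 difference of -0.11.

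The members also include 3 genes whose products help to assemble the base and leave the finished particle. Psmd10, also known as gankyrin, was at 25.1, 22.6 and 22.2 CPM in the 5xFAD libraries and 19.1, 16.5 and 21.7 CPM in those of Il3-/-5xFAD, without overlap (log2 difference -0.28 ± 0.14, SE; limma adjusted p = 0.352). Psmd9 and Psmd5 had overlapping groups and log2 differences of -0.11 and 0.037. Without these 3 genes the median of the regulatory particle was -0.073.

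Within each library the core was compared with the regulatory particle as the ratio of summed CPM, which does not depend on how libraries are scaled. The ratio was 0.675, 0.712 and 0.656 in 5xFAD replicates 4, 5 and 6 and 0.575, 0.631 and 0.642 in Il3-/-5xFAD replicates 1, 2 and 3. Each Il3-/-5xFAD library was below each control, by a gap between replicate 3 and 5xFAD replicate 6 that was small beside the spread within groups. The mean log2 ratio differed by -0.15, with a pooled SD between libraries of 0.074. Summed core transcripts were at 1005 ± 11.7 CPM in the controls and 861.4 ± 80.7 CPM without Il3 (SD, n = 3), 14.3% lower, and the groups did not overlap. Those of the regulatory particle were at 1477 ± 53.1 and 1398 ± 88.2 CPM, 5.39% lower, with overlap. No p is given, since the members were chosen as a set.

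One library weighed on these values. The median core member lay 0.14, 0.13 and 0.069 above its 6-library mean of log2(CPM + 1) in 5xFAD replicates 4, 5 and 6. In Il3-/-5xFAD replicates 1 and 2 it lay at -0.20 and -0.14, and in replicate 3 at 0.028. Il3-/-5xFAD replicate 3 was therefore the library of its group nearest to the controls, and its regulatory particle median (0.037) fell within theirs (-0.026 to 0.080). It also had the fewest genes with a read, 14435 against 15740 to 17245 in the others, whose part was not tested. Without it all 36 members had a negative difference, the median was -0.20, and limma called 5 members, Psma2 (-0.38), Psma6 (-0.34), Psma7 (-0.37), Psmb1 (-0.34) and Psmb6 (-0.41), with limma adjusted p of 0.0409 to 0.0473. All 5 are core genes and were lower (5 of 36 members, against 3.12% of tested genes called lower in that fit). The regulatory particle median was then -0.15. Without Il3-/-5xFAD replicate 2 the median over all members was -0.087 and that of the regulatory particle -0.035.

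**Figure D2:**
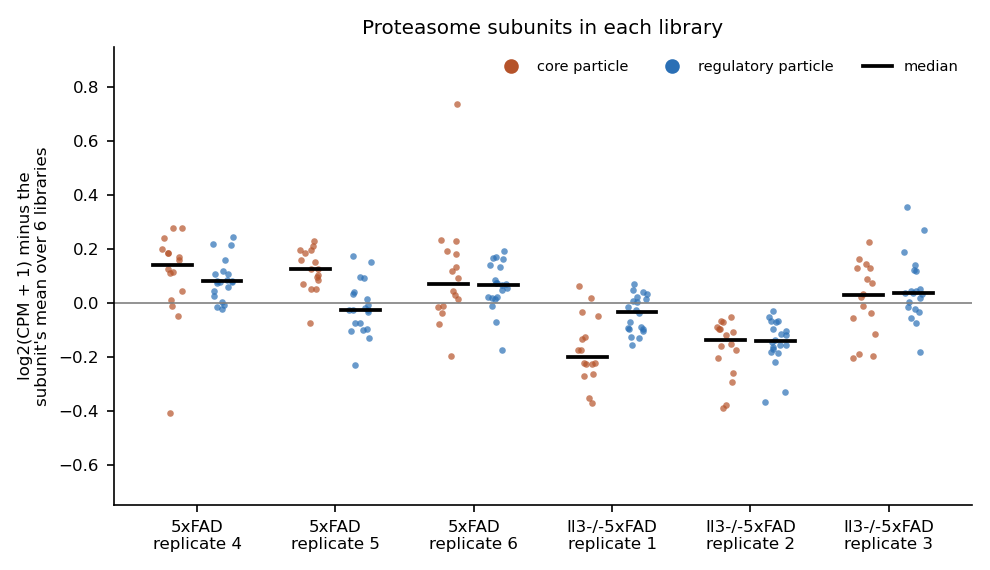
Each point is 1 member in 1 library, as log2(CPM + 1) minus the member's mean over the 6 libraries (y axis), with medians as black bars. Core medians run from 0.069 to 0.14 in 5xFAD and from -0.20 to 0.028 in Il3-/-5xFAD, with Il3-/-5xFAD replicate 3 nearest to the controls.

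Levels of the members differed far more between genes than between genotypes. On the scale of CPM per kilobase of the GENCODE principal transcript, 5xFAD means ran from 2.87 for Psma8 and 6.54 for Psmd5 to 97.1 ± 1.22 for Psmb6 (SD, n = 3). Psmb4 (95.2 ± 5.49) did not differ from Psmb6 beyond its spread. Within the alpha ring, whose subunits are present in equal number in the particle, Psma7 was at 82.2, Psma6 at 78.4 and Psma1 at 61.6, while Psma2, Psma5 and Psma3 were at 26.5, 23.0 and 17.4. The principal transcripts of Psma2 and Psma3 are long (2911 and 2846 bases), which lowers values per kilobase. Psmc3 led the ATPases at 85.8, Psmd4 the rest of the base at 62.9 and Psmd8 the lid at 54.8. The 3 assembly chaperones were low on this scale, from 6.54 to 16.3.

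**Figure D3:**
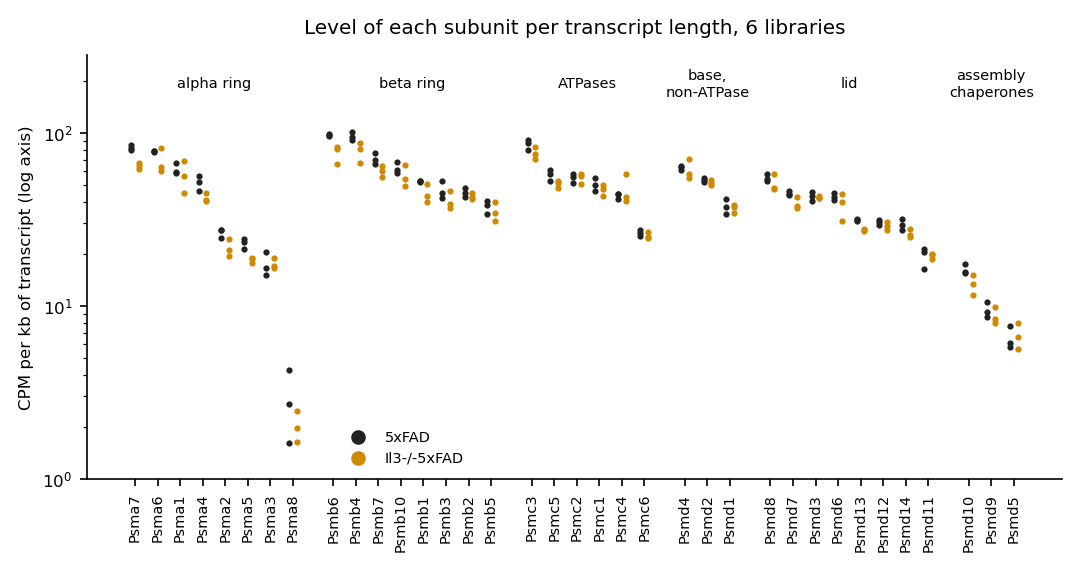
CPM per kilobase of principal transcript (log y axis) for the 36 members by role, with 3 points for 5xFAD and 3 for Il3-/-5xFAD. Psmb6 and Psmb4 are highest in 5xFAD, at 97.1 and 95.2, and Psma8 is lowest, at 2.87.

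Some members share sequence with processed copies elsewhere in the genome, and how the authors' counting treated such reads is not given in the sources used here. In GENCODE transcripts, 54.1% of the 50-base stretches of Psmb5 and 49.1% of those of Psma5 occur in other genes, mostly copies, and the values of both genes are uncertain to that extent. The copies listed in the table had at most 0.25 CPM for Psmb5 and 0.452 CPM for Psma5 in any library. Psmb3 and Psmd2 shared 17.8% each, Psma3 15.4%, Psmc1 14.1% and Psma4 11.6%, and the other members less than Psma4. Psma7 shared 1.02% and Psmb6 1.05%.

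Transcript length moved with the genotype difference over all tested genes, and core transcripts were the shorter ones among members. Over the 11753 tested genes with a known length, the rank correlation (Spearman) of length with the log2 difference was 0.31. Within the regulatory particle it was 0.45, and within the core -0.029. The median principal transcript was 1174 bases for core members, 1710 for regulatory particle members and 2971 for all tested genes. Among the shortest 2352 tested genes (up to 1691 bases) the median log2 difference was -0.14, and it was 0.087 among the longest 2351. Of the members 22 were among the shortest, 12 core and 10 regulatory particle, with medians of -0.22 and -0.16. The next longer group held 2 core members, Psmb1 and Psma8, with a median of -0.29, and 5 regulatory particle members with one of -0.049. Psma8 had the lowest level of the members, and its interval ran from -0.98 to 0.29. In the group after that, the 2 core members had a median of -0.13 and the 4 regulatory particle members one of -0.042. After each library was corrected for its trend with length, the core median was -0.11 (12 of 16 negative) and that of the regulatory particle -0.035 (15 of 20 negative), and the difference in log2 ratio was -0.064. Psma7 then differed by -0.15, and those of the core genes Psmb2, Psmb3 and Psmb5 were positive (0.13, 0.035 and 0.083), where each had been negative. Psma2, at -0.29, was then the single member with an unadjusted p under 0.05 (limma on corrected values, adjusted p = 0.195). That value rests on the length used for Psma2, 2911 bases. In its group by length the median over all tested genes was 0.0043, so the correction changed Psma2 little. Whether length itself had a part was not tested.

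**Figure D4:**
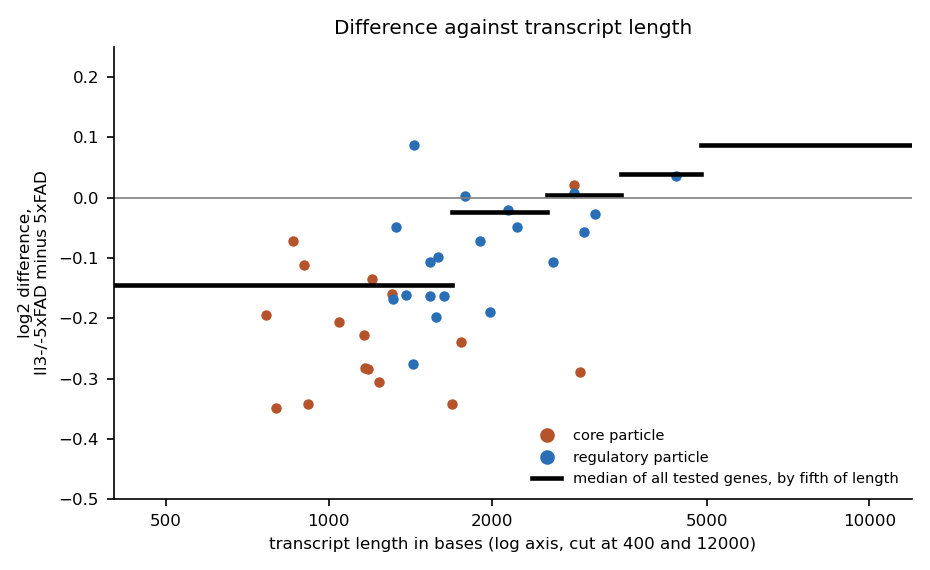
Log2 difference (Il3-/-5xFAD minus 5xFAD, y axis) against principal transcript length (log x axis) for the 36 members. Black lines are medians of all tested genes in each of 5 equal groups by length, from -0.14 in the shortest to 0.087 in the longest, and 22 of 36 members lie in the shortest group.

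Genes that serve the proteasome were read beside the members, and none of them passed the limma test. By DESeq2, Psmb8 and Shfm1 passed (adjusted p of 0.00945 and 0.0269), and by limma without Il3-/-5xFAD replicate 3 both passed too (adjusted p = 0.0228 each). Shfm1, which encodes the small lid subunit Sem1, was at 62.4, 61.6 and 69.3 CPM in the 5xFAD libraries and 43.0, 43.4 and 55.7 CPM in those of Il3-/-5xFAD. Its groups were well apart, and the difference was -0.44 ± 0.12 (log2, SE; limma adjusted p = 0.0831), larger than that of any member. Adrm1, which encodes the ubiquitin receptor Rpn13, was at 35.6 ± 1.86 and 39.2 ± 4.19 CPM (SD, n = 3). Of 6 further assembly factors 5 had negative differences, and Pomp, which encodes the maturation factor of the core, was at 99.8, 114.5 and 117.4 CPM against 82.4, 95.03 and 97.2 CPM, without overlap (-0.27 ± 0.097, SE; limma adjusted p = 0.185). AI314180, the other of these 6, differed by 0.015.

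Of the 5 genes for other caps and the inhibitor, Psme1 and Psme2, which encode the interferon-inducible PA28 cap, had log2 differences of -0.19 ± 0.11 and -0.21 ± 0.10 (SE). Psme2 had no overlap between groups, and Psme4, which encodes the PA200 cap, differed by 0.043. Among 8 shuttles and deubiquitinases the median was -0.063, with 5 negative and 3 positive differences from -0.14 to 0.21, and the most abundant, Ubqln1 and Rad23b, were at -0.11 and -0.14. The 6 genes of the Vcp segregase, which extracts substrates for the proteasome, had a median of -0.079, with Vcp at -0.11 and Nploc4 at -0.075.

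The regulator Nfe2l1 was at 131.0, 154.4 and 157.5 CPM in the 5xFAD libraries and 152.5, 138.6 and 153.8 CPM in those of Il3-/-5xFAD. These overlapped fully, with a log2 difference of 0.010 and an interval of -0.19 to 0.21. Nfe2l2, which encodes the related factor NRF2, differed by -0.057. These 2 belong to a list of 7 genes for the transcriptional control of proteasome genes, of which 6 had positive differences (median 0.10). In 2 of the 7 every Il3-/-5xFAD library lay above every control, a larger share than the 9.65% of tested genes, and none of the 7 passed the limma test.

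Other large complexes give the scale of these medians. The COP9 signalosome and eIF3 share the architecture of the proteasome lid. The signalosome had a median of -0.011 (5 of 9 negative), against -0.13 for the lid, while eIF3 had one of -0.15 with all 13 genes negative. The chaperonin TRiC was at -0.14 with all 8 negative. The 78 genes listed for the respiratory chain and ATP synthase, not all of them subunits, had a median of -0.27. Cytosolic ribosomal proteins had one of -0.42 (75 genes, of which Rps25, Rps27 and Rpl36 fell and Rpl26 rose by limma). Of the 50-base stretches of Rpl26, 22.7% occur in other genes, and its value is uncertain to that extent. With the length correction Rps25, Rps27 and Rpl36 did not pass (limma adjusted p of 0.0670, 0.3003 and 0.181), nor did they by edgeR (adjusted p of 0.0676, 0.0781 and 0.0762). With the length correction the medians of these 5 complexes were 0.021, -0.095, -0.13, -0.088 and -0.23 in the same order. The median of the lid was then -0.044.

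**Figure D5:**
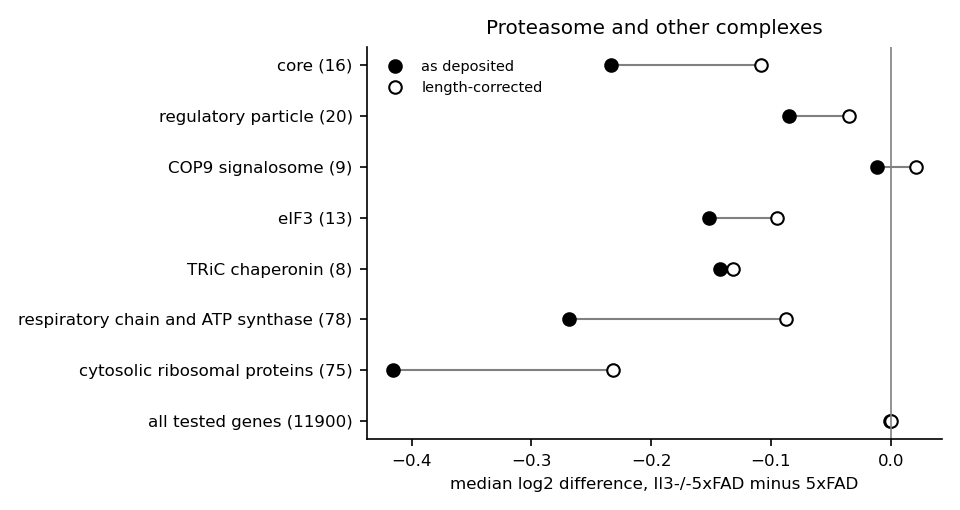
Median log2 difference (Il3-/-5xFAD minus 5xFAD, x axis) over the tested genes listed for each complex, their number in brackets, from the deposited values (filled) and after the transcript length correction (open). The core moves from -0.23 to -0.11 and the regulatory particle from -0.085 to -0.035.

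Of the members, 6 lie on chromosome 11, which carries Il3, and sequence linked to the deletion goes with genotype. Psmb6 is the nearest, 160 tested genes from Il3 and 19 from Nlrp1a, a gene with 1.10 ± 0.325 CPM in controls but 25.6 ± 2.98 CPM without Il3 (SD, n = 3; 3.67 on the log2 scale, limma adjusted p = 3.12e-06). For Psmb6, the lack of Il3 and its linked surroundings cannot be told apart. The other 5, Psmd11, Psmb3, Psmd3, Psmc5 and Psmd12, lie 283 to 561 tested genes from Il3. The 6 had a median log2 difference of -0.12, against -0.16 for the 30 members elsewhere.

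Count tests were run on reads recovered from the CPM values. By edgeR with TMM factors no member passed (10 at an unadjusted p under 0.05, all lower; 0.294% of tested genes were called lower). DESeq2 called Psma7 lower (log2 difference -0.34, DESeq2 adjusted p = 0.0221), while it called 3.45% of tested genes lower. The p-values measure the spread between 3 pools a group, and intervals are those of single genes.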

How the data were processed

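The data were 6 RNA-seq libraries, 3 per genotype, made from polyA RNA with a directional kit, per the labels' protocols. The authors deposited CPM values for 20129 genes; per the submitters' processing notes, mm9 was the build, and edgeR, HTSeq and STAR were used, with no version or role stated. Annotation and counting mode: not given in the sources used here. All deposited CPM values were whole multiples of 1 read (100%, within 0.01 reads), so reads were recovered. No pair of libraries within a group was alike within sampling noise (chi-square over its degrees of freedom at least 22.1). Genotype and replicate number came from the titles.

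Genes at 1 CPM or more in at least 3 libraries (11900) were fitted with limma 3.58.1 (R 4.3.3; two-sided, variance trended on the mean) using log2(CPM + 1), a scale that understates differences of low genes, with Benjamini-Hochberg adjustment over all of them. The fit was tested on simulated data. Tried besides were quantile normalization, rescaling by median ratios, other pseudocounts (0.25, 5), other filters (none, or mean CPM from 5 up), robust or trend-free estimation, a transcript length correction (lowess, span 0.3), leaving out each library, and edgeR 4.0.16 and DESeq2 1.42.0 on the recovered reads. Lengths are those of GENCODE principal transcripts (GRCm38) and were found for all 36 members.

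Members and gene lists were chosen with earlier results of these data known. Named genes were a fixed set, called members, members without overlap, the extremes and the highest level per kilobase in each role, and in each further pathway list called genes or the 2 most abundant; complexes used for scale are given as lists. A further pathway list is not reported here. Replicates are separate pools per the series' design.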

Additional observations from a re-analysis of the deposited data

How the results depend on the processing

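No paired analysis was possible because the groups share no replicate number. Under 11 alternatives and 6 left-out libraries, no median over all, core or regulatory particle members changed sign. The count of called members was 0 except with DESeq2 (1) and without single libraries (0 to 5). The median over members was -0.048 with the length correction and -0.20 to -0.087 without single libraries. Those of the core were -0.11 and -0.28 to -0.17, that of the regulatory particle ran from -0.15 to -0.035 without single libraries, and the core to regulatory particle log2 ratio was -0.064 with the length correction and -0.18 to -0.097 without single libraries. The cause was not tested.

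Some differences turned sign, most of them near 0. With quantile normalization Psmd11 differed by -0.0051, AI314180 by -0.017 and Nfe2l1 by -0.029. With the length correction Psmb2 differed by 0.13, Psmb3 by 0.035 (from -0.19), Psmd3 by 0.0054, Psmb5 by 0.083, Psmd4 by 0.064, Psmd5 by -0.012, AI314180 by -0.076, Nfe2l1 by -0.045 and Psme4 by -0.040. Without single libraries the ranges were -0.073 to 0.15 for Psma3, -0.069 to 0.19 for Psmc4, -0.10 to 0.050 for Psmd1, -0.11 to 0.081 for Psmd11, -0.15 to 0.024 for Psmd4, -0.089 to 0.16 for Psmd5, -0.068 to 0.11 for AI314180, -0.073 to 0.059 for Nfe2l1, -0.11 to 0.010 for Nfe2l2 and -0.041 to 0.15 for Psme4. With 3 pools a group, even the narrowest 95% interval of a member, that of Psmd2, ran from -0.22 to 0.11. Differences of Psmd2 within that interval, in either direction, were thus not excluded.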
